A study of Mus musculus with 116 samples.

Results

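The distal Igkv1 segments are 10 of the 162 annotated variable (V) segments of the mouse immunoglobulin kappa light chain locus: Igkv1-88, Igkv1-99, Igkv1-110, Igkv1-115, Igkv1-117, Igkv1-122, Igkv1-131, Igkv1-132, Igkv1-133 and Igkv1-135. A row of a junction list, which is 1 sequenced joint, was counted for a segment when its junction on chromosome 6 lay within 100 bp of the segment's RefSeq coordinates (GRCm38). By that rule 169101 of 1374899 rows in 42 libraries, or 12.3%, belonged to these 10 segments, and 99.9% of all rows lay in the window of some Igkv segment. The members are a named list, and the list did not take in 2 other distal segments of the family, the pseudogenes Igkv1-108 (1066 WT rows) and Igkv1-136 (0 WT rows).

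The cells were v-Abl transformed pro-B cells, an early B-lineage stage immortalised by a viral kinase, and every group carried the Emu-Bcl2 transgene. All were arrested in G1 with STI-571, an inhibitor of that kinase, at 3 µM for 96 h, during which the RAG nuclease cuts the kappa locus. The wild-type groups (Emu-Bcl2 alone, WT) were clones A and B. The other genotypes were Ku70-/- (clones A1 and B1), Lig4-/- (clone A1 in 2 sets, clone B1 and clone C), Lig4-/- Ku70-/- (clones A1_1 and C1), Lig4-/- Ku70-/- with Ku70 added back (A1_1 and C1) and Lig4-/- with Lig4 added back (A1 and C). Each of the 14 groups was 1 clone with 3 libraries. Nothing in the labels says that the 3 came from separate cultures, so p-values measure the spread between libraries, which may be technical. Clones that share a letter are compared as a lineage (A, B or C). No wild-type library of lineage C was among those used, and clones, lineage and genotype cannot be fully told apart with 1 clone per genotype and lineage.

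Each library was made by linear amplification from the coding end of Jκ1, the first kappa joining segment, so every row is a Jκ1 end joined to something else. RAG cuts between a segment and its recombination signal sequence, which is a heptamer, a spacer and a nonamer. The cut leaves a hairpin-sealed coding end and a blunt signal end. Opening the hairpin off its centre leaves a few palindromic (P) bases, and terminal transferase can add untemplated (N) bases. In classical end joining, Ku70, with its partner Ku80, holds and protects the ends, and DNA ligase IV, encoded by Lig4, seals them. When these factors are missing, ends may be cut back and joined by alternative routes that often use short sequence matches, called microhomology. A V segment facing the same way as Jκ1 joins by deleting the DNA between them, and a segment facing the other way joins by inverting it. Here 8 members joined by deletion and 2, Igkv1-88 and Igkv1-131, by inversion, as read from the wild-type rows.

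The coding ends and signals of the members are printed because every joint below is described by how many of these bases it kept. They were read base by base from the deposited reads of these joints, the coding side from joints in the usual orientation and the signal from joints in the opposite one, with at least 5 reads behind each base, and the lowest agreement among reads at any base was 85.1%. Lower case runs from the codon of the conserved cysteine (tgc) to the last coding base, and capitals mark the heptamer and the nonamer around the 12-base spacer.
Igkv1-135: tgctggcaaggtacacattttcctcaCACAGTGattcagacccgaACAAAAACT
Igkv1-133: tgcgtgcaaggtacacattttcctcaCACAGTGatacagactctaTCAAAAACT
Igkv1-132: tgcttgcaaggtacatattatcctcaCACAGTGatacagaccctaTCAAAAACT
Igkv1-122: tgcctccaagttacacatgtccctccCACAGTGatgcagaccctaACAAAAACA
Igkv1-117: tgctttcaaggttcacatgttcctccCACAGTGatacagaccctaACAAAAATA
Igkv1-110: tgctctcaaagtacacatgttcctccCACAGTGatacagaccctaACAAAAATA
Igkv1-99: tgcttccagagtaactatcttcctct
Igkv1-88: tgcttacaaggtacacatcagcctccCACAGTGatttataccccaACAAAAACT
Jκ1: gtggacgttcggtggaggcaccaagc

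The 7 members with a readable signal all had the heptamer CACAGTG. The signals of Igkv1-117 and Igkv1-110 were identical over 28 of 28 bases, and those of Igkv1-133 and Igkv1-132 over 27 of 28. The coding ends of Igkv1-135 and Igkv1-133 matched at 24 of 26 bases, while that of Igkv1-99 matched the other members at 16 to 18 of 26. Too few reads crossed the signal of Igkv1-99, or any end of Igkv1-115 and Igkv1-131, for a sequence. In mm10, the printed stretches lie on chromosome 6 at chr6:67610483-67610536 (Igkv1-135), chr6:67725636-67725689 (Igkv1-133), chr6:67760388-67760441 (Igkv1-132), chr6:68017463-68017516 (Igkv1-122), chr6:68121802-68121855 (Igkv1-117), chr6:68271242-68271295 (Igkv1-110), chr6:68542397-68542422 (Igkv1-99) and, on the minus strand, chr6:68862237-68862290 (Igkv1-88). The Jκ1 end lies at chr6:70722562-70722587. Each V stretch is the 3′ end of a variable segment with its flank.

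The members lie far upstream of Jκ1, from 1860 kb (Igkv1-88, the 103rd annotated V segment counted away from Jκ1) to 3112 kb (Igkv1-135, the 160th of 162). Igkv1-133, Igkv1-132 and Igkv1-131 lie between 2956 and 2997 kb, Igkv1-122 at 2705 kb, Igkv1-117 and Igkv1-115 at 2601 and 2561 kb, Igkv1-110 at 2451 kb and Igkv1-99 at 2180 kb. All are annotated as V segments except Igkv1-115, a V pseudogene.

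The depth of the libraries followed the genotype. Libraries held 47130 to 53074 rows in WT clone A, 291174 to 305846 in WT clone B, 3075 to 6383 in Ku70-/- A1, 50218 to 60811 in Ku70-/- B1, 1867 to 7225 in the double null, 10577 to 35059 with Lig4 added back, 46 to 612 with Ku70 added back, and 3 to 74 in Lig4-/-. Per the labels, raw reads had been set to 167151 in lineage A, 600000 in lineage B and 377068 in lineage C, and lineage B alone was run on a NextSeq, so sequencing platform and lineage B cannot be told apart. No row of a lineage B list had lost more than 48 bp from Jκ1, whereas 18.4% of all rows of Ku70-/- A1 had, so long Jκ1 losses were measured in lineages A and C only. A chi-square test over the Igkv segments with enough rows found a difference in all but 14 of 42 pairs of libraries of 1 group. Pairs with too few such segments for a test were counted among these 14, so the 14 do not show that libraries matched. None of the 14 came from groups in which every library had over 1000 rows. Rows are sequenced reads and not independent molecules, so exact binomial intervals and limits for counts of 0 cover counting error only.

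In wild-type cells, usage of the members, meaning their percent of a library's rows, was led by Igkv1-135 and Igkv1-117. Summed over the 10 members, usage was 8.54%, 11.8% and 10.9% in the 3 libraries of WT clone A and 12.1%, 12.3% and 11.96% in those of WT clone B. The means were 10.4% ± 1.67 and 12.1% ± 0.174 (SD, n = 3). Igkv1-135, the most distal member, took 4.08%, 6.39% and 5.64% of rows in clone A and 2.82%, 2.90% and 2.84% in clone B. Igkv1-117 took 1.54%, 2.34% and 1.82% in clone A and 2.89%, 2.95% and 2.84% in clone B. The 2 clones did not overlap for either segment. Igkv1-135 exceeded Igkv1-117 in every clone A library, while in clone B the means were 2.86% ± 0.0415 and 2.89% ± 0.0591 (SD, n = 3), closer than their spread.

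The middle members were Igkv1-110, Igkv1-88, Igkv1-133, Igkv1-122 and Igkv1-132. In WT clone B they averaged 1.96%, 1.23%, 1.37%, 1.19% and 0.595% in that order. In clone A the same 5 averaged 0.737%, 0.928%, 0.911%, 0.142% and 0.395%. Igkv1-122 had 0.0594%, 0.232% and 0.136% in clone A against 1.18%, 1.22% and 1.18% in clone B. The remaining members were rare. Igkv1-99 had 10 rows in clone A and 326 in clone B, the pseudogene Igkv1-115 had 0 and 25, and Igkv1-131 had 0 and 10. Outside WT clone B, Igkv1-115 appeared once, in Ku70-/- B1, and Igkv1-131 never.

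The difference between the wild-type clones was tested with limma on log2 usage over all segments with a mean of at least 10 rows. Of 117 segments, 53.8% passed an adjusted p of 0.05 (31.6% higher in clone B, 22.2% lower). Among 8 members tested, 7 were higher in clone B and 1, Igkv1-135, was lower. The median log2 difference was 0.61 over the members and 0.31 over all 117. Igkv1-122 was higher by 3.26 (SE 0.47, limma adjusted p = 0.00228), Igkv1-110 by 1.41 (SE 0.11, limma adjusted p = 3.55e-04) and Igkv1-99 by 3.28 (SE 1.00, limma adjusted p = 0.0343). For Igkv1-135 the log2 difference was -0.89 (SE 0.19, limma adjusted p = 0.0113). Counting each distinct joint of a library once in place of every row gave 4 calls among the members, where 58 of 113 segments passed, and clone, depth and platform cannot be told apart here.

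**Figure D1:**
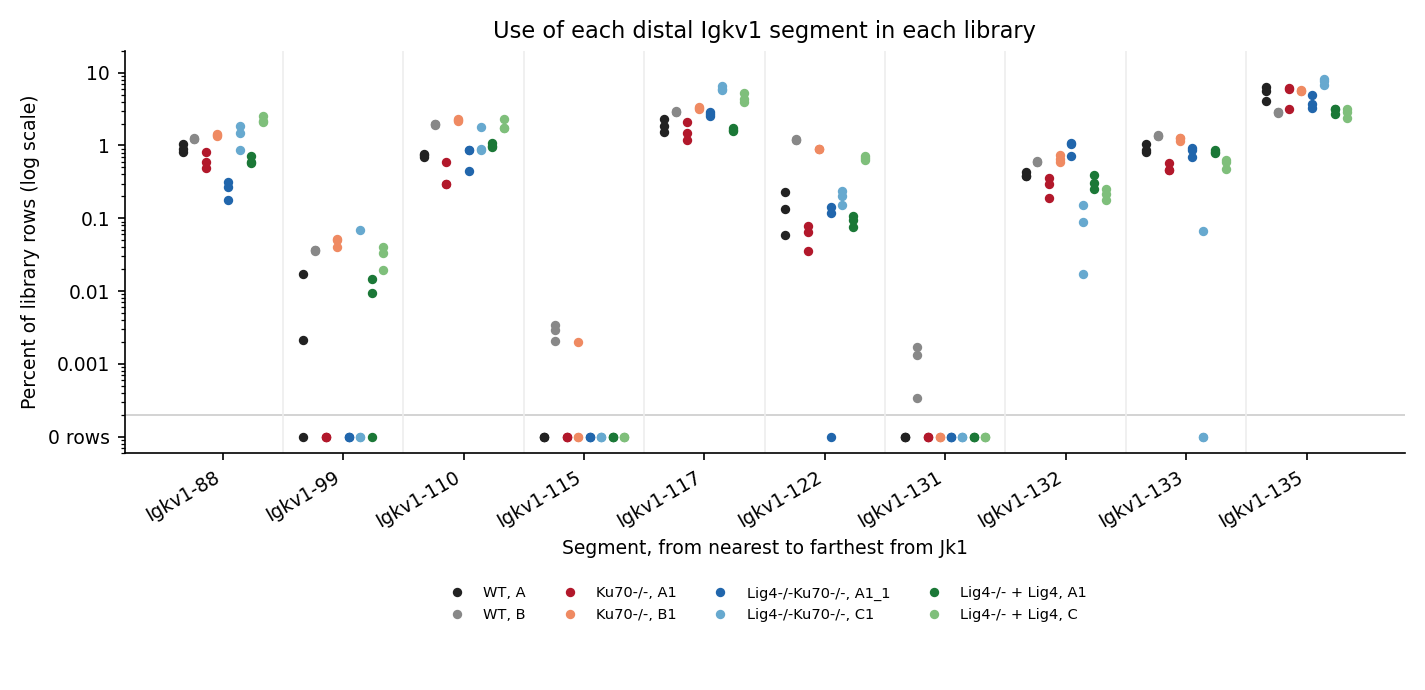
Usage of each member in percent of library rows on a log axis, 1 point per library, for WT, Ku70-/-, Lig4-/- Ku70-/- and Lig4-/- with Lig4 added back. Igkv1-135 and Igkv1-117 lie highest in most groups, Igkv1-122 lies near 0.142% in WT clone A and 1.19% in WT clone B, and Igkv1-133 and Igkv1-132 fall lowest in the Lig4-/- Ku70-/- C1 libraries.

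Summed usage of the members in Ku70-/- cells was lower on average than WT in lineage A and higher in lineage B. The libraries gave 6.67%, 10.2% and 8.62% in Ku70-/- A1, overlapping WT clone A, and 15.4%, 15.3% and 15.5% in Ku70-/- B1, above every library of WT clone B. The difference was -1.89 percentage points in lineage A and 3.27 in lineage B. Averaged over lineages it was 0.690, which the exact permutation test did not separate from 0 (two-sided p = 0.545, adjusted p = 0.600 over 22 single-value tests). The change in lineage A minus that in lineage B was -5.16 points (exact permutation p = 0.015, adjusted p = 0.105 over 7 measures). That permutation assumes no change in either lineage, so it does not test whether the 2 changes were equal.

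Segment by segment, 30.1% of 113 segments passed limma's test between Ku70-/- and WT (14.2% higher, 15.9% lower). Of 8 members tested 1 passed, Igkv1-133, which fell by 0.50 on the log2 scale (SE 0.15, limma adjusted p = 0.0256). It went from 0.819%, 0.874% and 1.04% to 0.455%, 0.581% and 0.454% in lineage A, with no overlap. In lineage B it went from 1.34%, 1.41% and 1.35% to 1.27%, 1.16% and 1.25%. The call was lost with the replicate number as a block (limma adjusted p = 0.0998), with each distinct joint counted once (0.0538), without WT clone A library 3 (0.0528) and without Ku70-/- A1 library 3 (0.0521). The median log2 difference was -0.18 over the members and -0.06 over all segments. Igkv1-135 stood at 3.15%, 6.08% and 5.91% in Ku70-/- A1, within the span of WT clone A apart from its first library, and at 5.56%, 5.62% and 5.78% in B1, above all 3 libraries of WT clone B.

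Without ligase IV the members were joined rarely at all. The 12 Lig4-/- libraries held 60 member rows together: 7 and 18 in the 2 sets of clone A1, 32 in B1 and 3 in C. Member usage ranged from 0% to 21.8% of 3 to 74 rows per library, and 3 libraries held no member row, so a usage value there rests on a handful of reads. The mean was 4.05% ± 3.58, 13.3% ± 6.60, 19.3% ± 2.98 and 6.25% ± 10.8 (SD, n = 3) in A1, its second set, B1 and C. Against WT the difference was -6.34 points in lineage A, with the first A1 set, and 7.14 in lineage B. With these sets, every Lig4-/- library lay below every WT library in lineage A and above every WT library in lineage B. The average was 0.400 (exact permutation p = 0.9), or 5.03 with the second A1 set (exact permutation p = 0.055). These 60 rows fell on 7 of the 10 members, with Igkv1-135 (19 of 32 rows in B1) and Igkv1-117 (9 of 18 in the second set of A1) the most frequent.

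Deleting Ku70 as well as Lig4 gave libraries with 163 to 1180 member rows, against at most 12 in any Lig4-/- library. Summed usage was 8.73%, 10.5% and 9.31% in clone A1_1 and 15.6%, 17.8% and 16.3% in C1. Compared with Lig4-/- (second set of A1, and C) the difference was 3.26 points (exact permutation p = 0.415, adjusted p = 0.481), with the spread set by the Lig4-/- libraries. With the first set of A1 it was 7.90 points (exact permutation p = 0.035). Compared with Ku70-/- A1, clone A1_1 differed by 1.02 points (exact permutation p = 0.4, where 0.1 is the smallest that 3 against 3 allow). Within the pairs of same-numbered libraries, which shared a sequencing run, it was higher in 3 of 3, by 0.313 to 2.06 points (exact paired permutation p = 0.25, the smallest possible). Of 80 segments 10% passed limma's test in that comparison (2.5% higher, 7.5% lower), and 1 of 6 members, Igkv1-132, rose by 1.75 on the log2 scale (SE 0.36, limma adjusted p = 0.0209). Its usage went from 0.358%, 0.299% and 0.188% in Ku70-/- A1 to 1.07%, 1.05% and 0.716% in A1_1, with no overlap. The values rest on 40 and 86 rows. Leaving out Ku70-/- A1 library 2 or 3, or A1_1 library 2, ended the call, which left 0 members called.

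The 2 double-null clones differed from each other at the far end of the locus. In C1, Igkv1-133 had 3 rows in 1 library and none in the other 2, and Igkv1-132 had 4, 1 and 11 rows. In A1_1 the same segments had 82 and 86 rows in fewer total rows. The log2 difference, C1 minus A1_1, was -5.67 for Igkv1-133 (SE 0.91, limma adjusted p = 0.00901) and -3.67 for Igkv1-132 (SE 0.67, limma adjusted p = 0.0128). In the same comparison Igkv1-88, Igkv1-117 and Igkv1-135 were higher in C1, by 2.35, 1.16 and 0.94. So 5 of 6 members tested passed (3 higher, 2 lower), where 26.7% of 75 segments did (9.33% higher, 17.3% lower). With the replicate number as a block 0 of the 6 passed, and 3 of 75 segments. Igkv1-135, which lies beyond Igkv1-133, took 7.65%, 8.24% and 6.78% of C1 rows, so the low values did not extend to the end of the locus.

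Segments next to Igkv1-132 were looked at after these values were seen. Igkv14-130 had 3 rows in C1 against 91 in A1_1, or 0.0170% against 0.932%. Igkv14-126 averaged 0.0490% against 0.673%, and Igkv11-125 0.898% against 4.92%. In Lig4-/- cells of clone C with Lig4 added back, Igkv1-133 stood at 0.473%, 0.623% and 0.586%, Igkv1-132 at 0.180%, 0.215% and 0.254%, Igkv14-130 at 0.191% on average and Igkv11-125 at 0.732%. When Ku70 was added back to C1, Igkv1-133 had 1 row and Igkv1-132 none. Whether the C1 cells still carry these segments was not tested.

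Adding Lig4 back to Lig4-/- cells returned libraries with 790 to 4816 member rows. Summed usage was 7.27%, 7.47% and 7.76% in A1 and 13.7%, 12.3% and 12.9% in C. In A1 every library lay below every WT clone A library, and the means differed by -2.89 points (adjusted p = 0.169; exact permutation p = 0.1, the smallest possible). Limma called 15.2% of 105 segments (8.57% higher, 6.67% lower) between them, and 1 of 7 members: Igkv1-135 fell by 0.82 on the log2 scale (SE 0.22, limma adjusted p = 0.0464), from the clone A values above to 2.68%, 3.13% and 3.17%. With each distinct joint counted once the log2 difference was -0.37 (limma adjusted p = 0.112). The call was also lost with WT clone A library 2 or 3 left out, and with any of the 3 add-back libraries left out. Between the 2 add-back clones 56.6% of 99 segments passed (22.2% higher in C, 34.3% lower), and 6 of 7 members (4 higher, 2 lower). Both lower calls, Igkv1-133 and Igkv1-132, were lost with each distinct joint counted once (limma adjusted p = 0.173 and 0.491). Igkv1-122 was higher in C by 2.83 on the log2 scale (limma adjusted p = 3.91e-06), at 0.636%, 0.680% and 0.719% against 0.106%, 0.0756% and 0.0948%. Igkv1-135 differed by -0.09 (limma adjusted p = 0.630).

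Libraries of the double null with Ku70 added back held 1, 7 and 4 member rows in A1_1 and 67, 97 and 73 in C1. Summed usage was 2.17%, 9.33% and 6.67% in A1_1 and 15.4%, 15.8% and 12.4% in C1. The difference from the double null was -2.75 points (exact permutation p = 0.04, adjusted p = 0.147), and values overlapped in both lineages. With each distinct joint counted once the difference was 0.102 points.

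Beyond usage, the joints themselves changed in every Ku70-/- library. In WT cells, 67.9%, 64.6% and 65.1% of member rows in clone A and 44.7%, 44.4% and 44.8% in clone B carried inserted bases between the V and Jκ1 ends. In Ku70-/- cells the share was 0.488%, 0.172% and 1.27% in A1 and 1.69%, 1.77% and 1.69% in B1. No library of one genotype overlapped the other. The mean difference over lineages was -54.1 points (exact permutation p = 0.005, the smallest that 400 relabellings give, adjusted p = 0.022). With each distinct joint counted once, the mean share was 76.3% in WT clone A and 76.0% in WT clone B, so the gap between the WT clones was seen by rows only. By distinct joints it was 1.24% in Ku70-/- A1 and 3.54% in B1.

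Microhomology, counted as at least 2 bp shared by both ends on the read, moved the other way. It was found in 0.671%, 0.179% and 0.624% of member rows in WT clone A and 2.26%, 2.17% and 2.47% in clone B. In Ku70-/- it was found in 21.5%, 16.7% and 21.6% in A1 and 17.7%, 19.5% and 18.3% in B1. Averaged over lineages the rise was 17.8 points (adjusted p = 0.022; exact permutation p = 0.005). The overlap was short, and the overlap that ends cut back at random would share was not computed. Whether microhomology guided these joints was therefore not tested. In Ku70-/- B1, 52.6% of joints in the usual orientation were blunt, 27.9% shared 1 bp, 9.35% shared 2 bp, 3.87% shared 3 bp and 1.51% shared 5 bp or more, with 10 bp the longest. The same shares in WT clone B were 46.3% blunt, 6.85%, 1.77%, 0.374% and 0.0102%, with 6 bp the longest. Libraries of the A lineage that shared a sequencing run gave differences of 16.5 to 21.0 points in microhomology and -63.9 to -64.4 points in insertions.

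**Figure D2:**
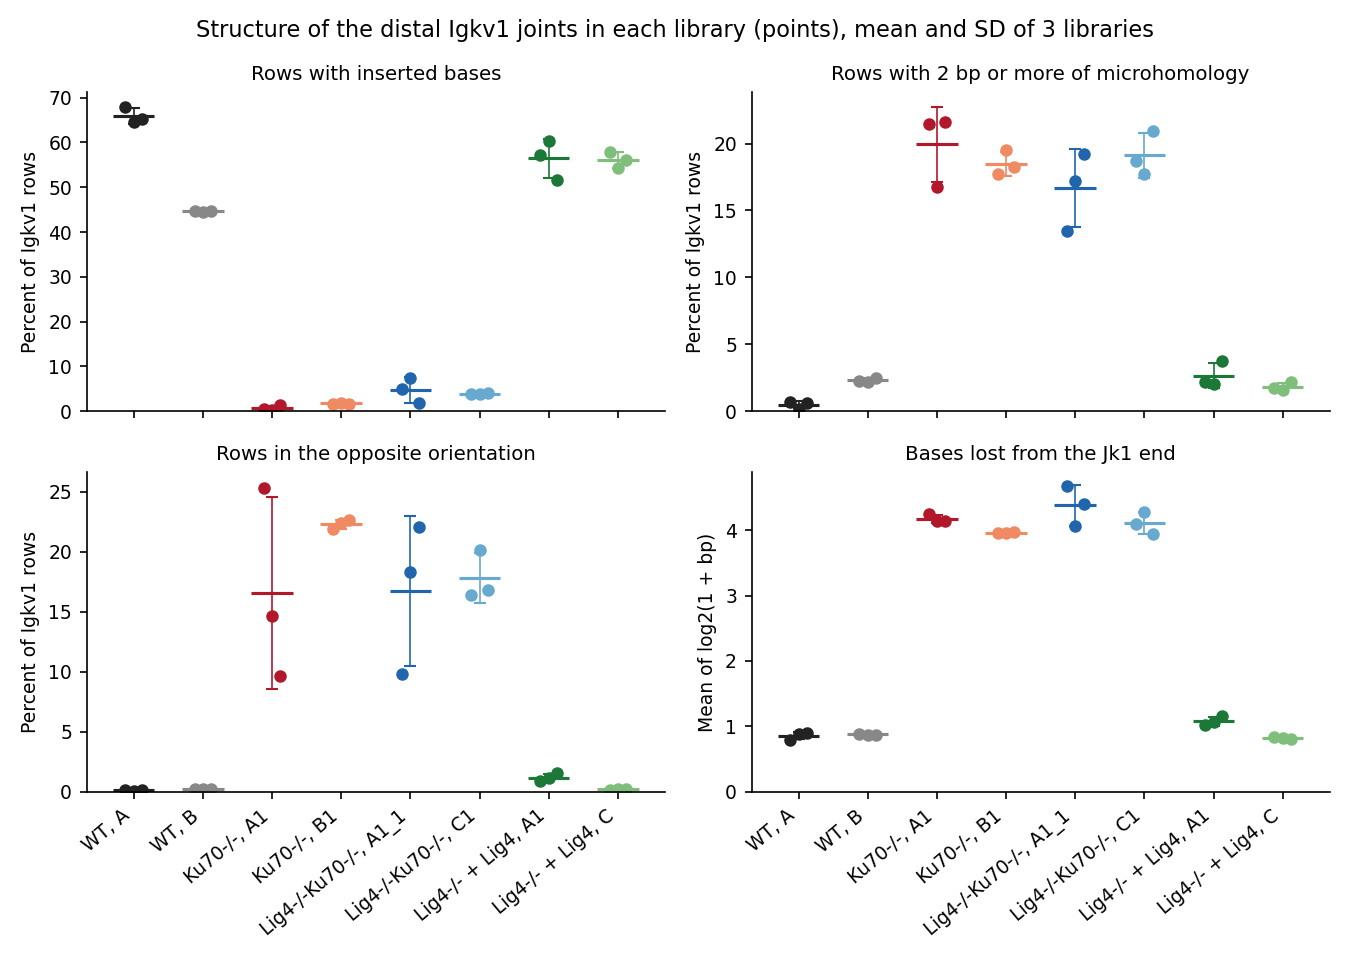
Share of member rows with inserted bases, with 2 bp or more of microhomology and in the opposite orientation, and mean log2(1 + bp) lost from Jκ1, by library (points) with mean and SD of 3 libraries. Ku70-/- and Lig4-/- Ku70-/- libraries lie together and apart from WT and from Lig4-/- with Lig4 added back in all 4 panels.

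Both ends were cut back in Ku70-/- cells. The median loss from the V coding end, counted from the heptamer in joints of the usual orientation, was 3 bp in every WT library and 15 bp in every Ku70-/- library. On the scale log2(1 + bp), and counted from the annotated segment end, the mean was 1.67 ± 0.0407 in WT clone A against 4.10 ± 0.0306 in A1, and 1.51 ± 0.00119 in WT clone B against 3.89 ± 0.0229 in B1 (SD, n = 3). The difference was 2.40 (exact permutation p = 0.005, adjusted p = 0.022). From the Jκ1 end the median loss was 0 bp in WT clone A and 1 bp in clone B, against 16 bp in all 6 Ku70-/- libraries. The mean log2 loss differed by 3.20 (exact permutation p = 0.005, a test added after the data were seen).

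A small share of WT joints in the usual orientation aligned past the V coding end. Inserted bases that match the signal would align in the same way and were not told apart from kept bases. Counted from the heptamer the share was 2.44% in WT clone A and 2.03% in clone B, against 0.121% and 0.110% in Ku70-/-. Counted from the annotated segment end it was 9.73% and 15.5% against 0.121% and 0.509%, or -12.3 points (adjusted p = 0.022; exact permutation p = 0.005). The larger values come from Igkv1-117 and Igkv1-110, whose annotated ends lie 2 bp before the heptamer.

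**Figure D3:**
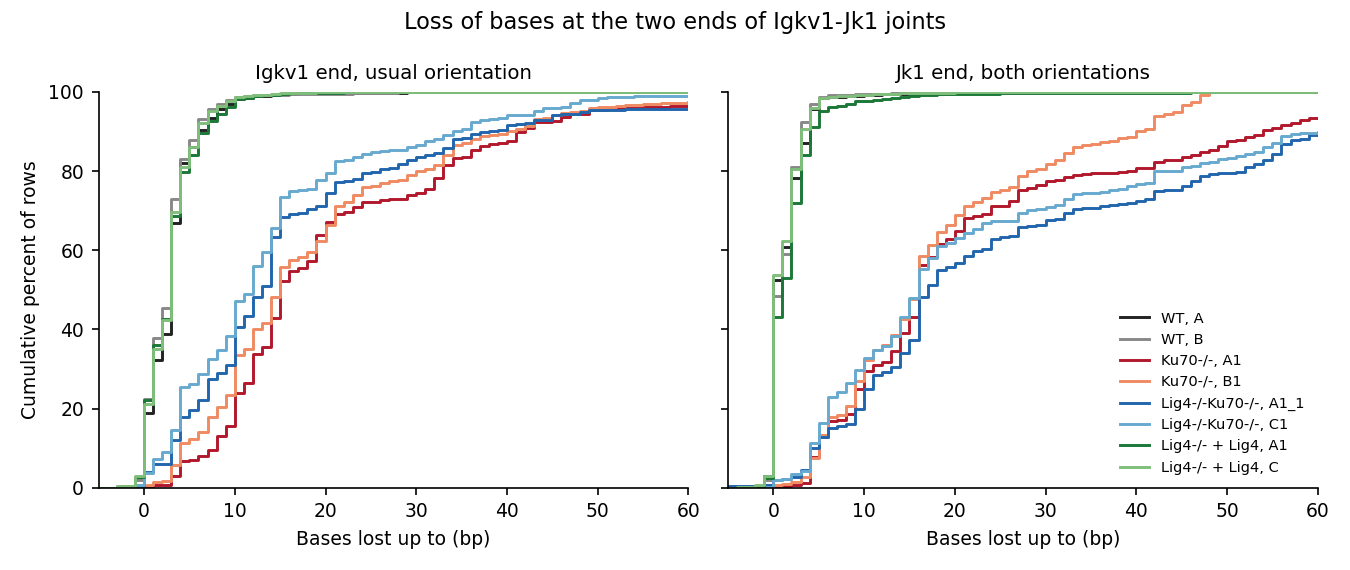
Cumulative percent of member rows (y) that lost up to a given number of bp (x) from the V coding end, counted from the heptamer in the usual orientation, and from the Jκ1 end in both orientations, by genotype and clone. WT and Lig4-added-back curves rise within the first few bp (V median 3 bp), Ku70-/- curves reach their V median at 15 bp, and the B1 curve for Jκ1 reaches 100% at 48 bp, the largest loss listed in lineage B.

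The most frequent joint of each kind shows the change in sequence. A joint was set by its 2 end positions, its orientation and its length of overlap or insertion, so inserted bases could differ within it. The commonest sequence of each is printed, for the WT Igkv1-135 joint that of 732 of 777 rows in clone A and 1647 of 1788 in clone B. Each is printed from V to Jκ1 on the coding strand, with 24 bases on each side. Capitals mark bases that were inserted or that both ends could have supplied.
WT, Igkv1-135: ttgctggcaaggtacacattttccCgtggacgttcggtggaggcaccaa
WT, Igkv1-117: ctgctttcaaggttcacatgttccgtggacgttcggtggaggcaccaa
WT, Igkv1-88: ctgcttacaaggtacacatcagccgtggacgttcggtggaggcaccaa
Ku70-/-, Igkv1-135: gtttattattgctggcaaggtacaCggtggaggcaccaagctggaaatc
Ku70-/-, Igkv1-117: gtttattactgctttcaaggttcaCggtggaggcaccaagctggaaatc
Ku70-/-, Igkv1-133: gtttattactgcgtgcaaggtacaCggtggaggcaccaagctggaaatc
Ku70-/-, Igkv1-117, at least 2 bp shared: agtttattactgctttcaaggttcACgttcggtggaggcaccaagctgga

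The commonest Igkv1-135 joint was the same in WT and in Lig4-/- cells with Lig4 added back. It lost 3 bp of V and none of Jκ1 and gained 1 base, and it made up 9.43% of 8244 Igkv1-135 rows in WT clone A, 7.04% of 25409 in clone B, 8.79% of 1069 in the A1 add-back and 7.13% of 2258 in the C add-back. The commonest Igkv1-117 and Igkv1-88 joints in WT clone B, at 9.99% and 11.6% of their rows, also lost 3 bp of V and none of Jκ1 but gained nothing. In both Ku70-/- clones the commonest Igkv1-135 joint instead lost 10 bp of V and 9 bp of Jκ1 around 1 shared base, and it made up 3.42% of 819 rows in A1 and 1.94% of 9673 in B1. Igkv1-117 and Igkv1-133 had the same losses in their commonest B1 joint, at 2.82% and 2.29% of their rows. With at least 2 bp shared, Igkv1-117 most often joined at AC after losing 10 bp of V and 4 bp of Jκ1, in 97 of 826 such rows in Ku70-/- B1 and 30 of 176 in the double null C1. Over the 7 frequent members, the commonest joint made up 5.42% to 16.3% of a member's rows in WT and 1.15% to 2.83% in Ku70-/- B1. In Ku70-/- A1 it made up 3.42% for Igkv1-135 and, on 242 rows, 5.79% for Igkv1-117, which lies within the WT range. Few distinct joints recurred between genotypes: 14 of 502 in Ku70-/- A1 (2.79%) and 328 of 7870 in B1 (4.17%) were also in the WT lists of the same lineage.

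In lineage B the shift was seen in each of the 7 frequent members. In Ku70-/- A1 some of them had too few rows to tell, down to 9 for Igkv1-122. In WT clone B the share of rows with microhomology ran from 0.319% (Igkv1-88) to 4.38% (Igkv1-117) among the 7 frequent members, and in Ku70-/- B1 from 15.0% (Igkv1-122) to 20.9% (Igkv1-88). The share with insertions ran from 38.3% (Igkv1-88) to 47.8% (Igkv1-133) in WT clone B and from 0.971% (Igkv1-132) to 2.57% (Igkv1-122) in Ku70-/- B1. Median V loss was 2 or 3 bp per member in WT clone B and 14 to 19 bp in Ku70-/- B1, longest in Igkv1-122. Igkv1-99, with 82 rows in B1, had a median loss of 21 bp and microhomology in 17.1%.

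In-frame joints, meaning those in which the V reading frame continues into Jκ1, made up 28.1% ± 0.638 of usual-orientation rows in WT clone A, 36.6% ± 0.515 in WT clone B, 38.8% ± 7.75 in Ku70-/- A1 and 31.2% ± 0.161 in Ku70-/- B1 (SD, n = 3). The mean was higher in Ku70-/- in lineage A and lower in lineage B. In the double null it was 31.8% ± 10.9 in A1_1 (23.8% to 44.2% over libraries of 147 to 304 rows) and 31.0% ± 2.98 in C1, and with Lig4 added back 30.7% ± 1.90 in A1 and 31.5% ± 1.33 in C (SD, n = 3). Random joining would place 33.3% in frame.

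Where bases were inserted in Ku70-/- cells, they differed from WT insertions. The mean insertion was 2.31 bases in WT clone A and 2.34 in clone B, and 5.69 ± 0.585 in Ku70-/- B1. Inserted bases were 64.5% and 59.7% G or C in WT and 51.8% ± 2.21 in Ku70-/- B1 (SD, n = 3). Ku70-/- A1 had 9 insertion rows in all and is not described further. Beside an intact end, the inserted bases can be compared with the palindrome of that end, which hairpin opening would leave. After an intact Jκ1, the 2 inserted bases next to it were ac, its palindrome, in 30.6% ± 3.11 and 36.0% ± 1.18 of WT rows with 2 or more inserted bases (clones A and B), against 2.08% and 2.34% where Jκ1 had been trimmed.

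In Ku70-/- B1 most insertions beside an intact end were wholly palindromic, and many were long. A palindrome of at least 4 bases was found in 311 of 6998 WT clone A rows with an insertion beside an intact end (4.46% ± 0.987) and 1434 of 34122 in clone B (4.20% ± 0.255). It was found in 93 of 155 in Ku70-/- B1 (60.4% ± 6.08) and 52 of 90 in the double null C1 (56.0% ± 14.5; SD, n = 3). In the double null A1_1 it was found in 5 of 21, or 23.8%, in the 1 library with enough rows. Between WT clone B and Ku70-/- B1 the difference was 56.2 points, with no overlap (exact permutation p = 0.1, the smallest possible for 3 against 3). This measure was chosen after the insertions were seen. It also depends on insertion length, since an insertion under 4 bases cannot hold such a palindrome. Insertions of 1 or 2 bases made up 69.6% and 75.8% of all insertions in WT clones A and B. They made up 39.6% in Ku70-/- B1 and 37.4% in the double null C1. The longest palindrome was 6 and 8 bases in WT clones A and B, 21 in Ku70-/- B1, 20 in the double null C1 and 19 in A1_1, and with Lig4 added back it was 5 in A1 and 7 in C. Exactly 1 palindromic base was found in 59.8% of the WT clone B rows and 5.81% of those of Ku70-/- B1. The whole insertion was palindromic in 41.8% of WT clone B rows and 89.0% of Ku70-/- B1 rows.

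A WT insertion and the long ones are printed to show this, with the inserted bases in capitals.
WT, Igkv1-135: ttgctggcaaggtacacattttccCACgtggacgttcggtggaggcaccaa
Ku70-/- B1, Igkv1-117: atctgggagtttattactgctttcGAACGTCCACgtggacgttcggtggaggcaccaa
Ku70-/- B1, Igkv1-135: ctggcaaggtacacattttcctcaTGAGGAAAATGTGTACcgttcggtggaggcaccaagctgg
Lig4-/- Ku70-/- C1, Igkv1-135: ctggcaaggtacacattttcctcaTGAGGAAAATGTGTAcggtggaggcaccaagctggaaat
In the Igkv1-117 joint the 10 inserted bases are the reverse complement of the intact Jκ1 end, and in the Igkv1-135 joints the 16 and 15 inserted bases are that of the intact V end. These joints were rare, at 2, 4 and 7 rows, of which 2, 3 and 7 had the printed sequence. The printed WT sequence was found in 82 of 162 rows of its joint in clone A and 172 of 292 in clone B.

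**Figure D4:**
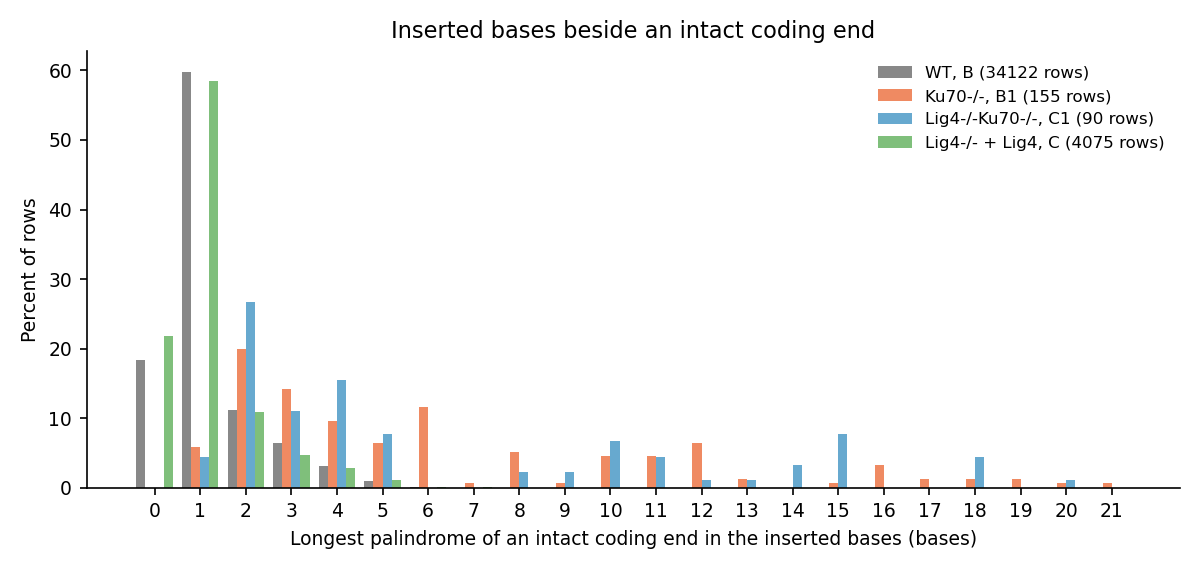
Percent of insertion rows beside an intact coding end (y) by the length in bases of the longest palindrome of that end in the inserted bases (x), in 4 groups. The WT clone B and Lig4-added-back bars end at 8 and 7 bases, while those of Ku70-/- B1 and Lig4-/- Ku70-/- C1 reach 21 and 20 bases.

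Joints in the wrong orientation for a coding joint were rare in WT and common without Ku70. An opposite row joins the Jκ1 coding end to the signal side of the V segment, the arrangement of a hybrid joint. They were 14 of 15921 member rows in WT clone A (0.0879%) and 234 of 107987 in clone B (0.217%). In Ku70-/- they were 25.4%, 14.7% and 9.64% of rows in A1 and 21.9%, 22.4% and 22.7% in B1. The share of rows in the usual orientation fell by 19.3 points (exact permutation p = 0.005, adjusted p = 0.022). In the double null they were 9.82%, 18.3% and 22.1% in A1_1 and 16.4%, 20.2% and 16.8% in C1. With Lig4 added back they were 1.20% in A1 and 0.196% in C.

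The signal side in these joints was seldom intact without Ku70. In WT clone B 84 of 234 opposite rows (35.9%) began at base 1 of the heptamer, which is the intact signal end, and in WT clone A 10 of 14. In Ku70-/- B1 5.15% of 5886 did, the median first base kept was base 15, and the Jκ1 end had lost a median of 16 bp. By place of the first base kept, 27.8% lay in the heptamer, 38.7% in the spacer, 12.9% in the nonamer and 19.05% beyond it. Base 15, in the spacer, was the commonest in both Ku70-/- clones, at 26.3% in A1 and 11.7% in B1. The commonest opposite joints of 2 members in Ku70-/- B1 show the retained signal side, reversed, ahead of Jκ1.
Igkv1-135: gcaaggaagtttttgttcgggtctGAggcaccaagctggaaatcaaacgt
Igkv1-88: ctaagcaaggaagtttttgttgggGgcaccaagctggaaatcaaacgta
The Igkv1-135 joint began at base 10 of the signal and lost 14 bp of Jκ1, with 2 bp shared (52 of 2431 opposite rows). The Igkv1-88 joint shared 1 bp and lost 16 bp of Jκ1 (18 of 717).

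**Figure D5:**
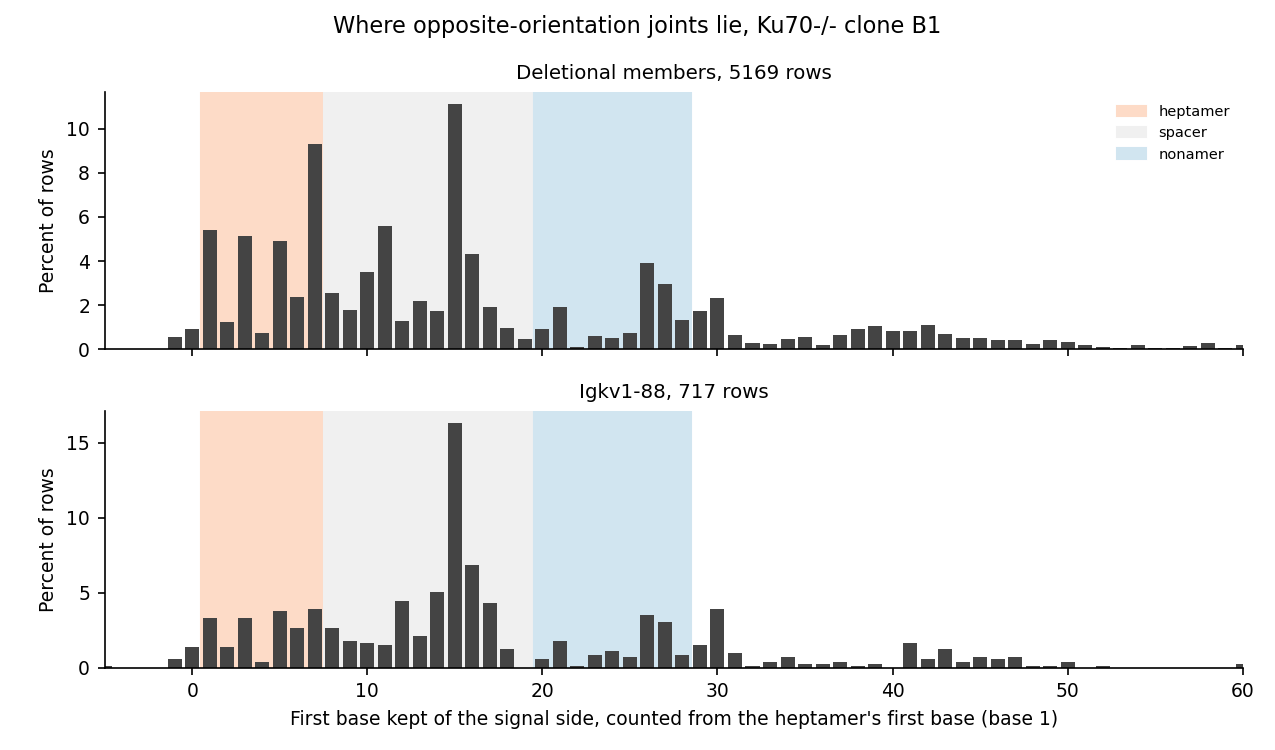
Percent of opposite-orientation rows in Ku70-/- B1 (y) by the first base kept of the signal side, counted from the heptamer's first base (x), for the deletional members together and for Igkv1-88. Shading marks heptamer, spacer and nonamer, and base 15 is the tallest bar in both panels.

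Igkv1-88, the frequent member that joins by inversion, had the highest opposite share. In Ku70-/- B1 it was 30.1% (28.6% to 31.1% over the 3 libraries), against 17.3% (Igkv1-117) to 25.1% (Igkv1-135) in the deletional members. In Ku70-/- A1 it was 48.4% (32.3% to 56.5%), on 95 rows. Over 6 Ku70-/- libraries the inversional minus deletional difference among members was 21.4 ± 15.6 points (SD), higher in 6 of 6. The other Igkv segments gave 19.9 ± 5.14, also 6 of 6, and in the double null the differences were 37.0 ± 9.68 and 24 ± 5.77. Each sign-flip permutation p was 0.03125, the smallest that 6 libraries allow, as was the adjusted p over 4 tests. The inversional share of the members is that of Igkv1-88 alone. It rests on 5, 6 and 13 rows in the A1_1 libraries and on 18, 46 and 31 in those of Ku70-/- A1. For an inversional segment the hybrid arrangement deletes the DNA between the ends, and for a deletional segment it inverts it.

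Set against all other Igkv segments within the same libraries, the members had more rows in the usual orientation in Ku70-/- cells, 80.6% against 68.5%, a difference of 12.05 points in 6 of 6 libraries. The sign-flip permutation p was 0.03125 and the adjusted p over 24 tests 0.0682. Among segments that join by deletion alone the values were 82.3% and 82.9% (difference -0.630, adjusted p = 0.711). Microhomology was found in 19.2% of member rows and 17.6% of the others (adjusted p = 0.173). In the double null the members' mean log2 V loss was 3.49 against 3.79, lower in 6 of 6 libraries (adjusted p = 0.0682). The members were also lower in 6 of 6 libraries of WT (-0.114) and of the Lig4 add-back (-0.178), each with the same adjusted p. In Ku70-/- they were lower in 3 of 6 (-0.0127). With each distinct joint counted once, the WT difference was -0.0106, with members higher in 2 of 6 libraries (sign-flip permutation p = 0.4375). In the Lig4 add-back it was then -0.0654, with members higher in 3 of 6 (sign-flip permutation p = 0.25). In the double null it was -0.308. V loss here was counted from annotated segment ends, which for some members lie short of the heptamer. Whether this shaped the differences was not tested.

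Joint structure in the double null was set against Ku70-/- in lineage A. Clone A1_1 had microhomology in 13.5%, 17.2% and 19.2% of rows, against 21.5%, 16.7% and 21.6% in Ku70-/- A1 (difference -3.29, exact permutation p = 0.3). Insertions were in 4.91%, 7.50% and 1.79%, all above the Ku70-/- A1 libraries (difference 4.09, p = 0.1, the smallest possible, exact permutation). The mean log2 V loss differed by -0.499 with no overlap (exact permutation p = 0.1), and Jκ1 loss differed by 0.207 (exact permutation p = 0.4). Clone C1 had microhomology in 18.7%, 17.7% and 20.9% and insertions in 3.74%, 3.83% and 3.98%, with no Ku70-/- clone of lineage C to set it against.

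With Lig4 added back, the joints of A1 lay near WT clone A but apart from it. Microhomology was 2.19%, 2.03% and 3.76% (difference 2.17), insertions 57.3%, 60.4% and 51.6% (difference -9.45), and the share in the usual orientation differed by -1.07 points. Each had exact permutation p = 0.1, the smallest possible, with no overlap. The mean log2 V loss differed by -0.0363 and overlapped (exact permutation p = 0.4). No add-back library of A1 shared a sequencing run with WT clone A.

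The few Lig4-/- joints were not of 1 kind. At least 2 bp of microhomology was found in 21 of 32 member rows in B1 (65.6%, 95% exact interval 46.8 to 81.4), 8 of 18 in the second set of A1, 0 of 7 in the first and 1 of 3 in C. By distinct joints, 17 of 27 in B1 had it. Of those 27, 10 were also in the WT clone B lists (37.0%), as were 2 of 4 and 4 of 9 of the 2 A1 sets in the WT clone A lists, shares above those of Ku70-/- given above. Whether these rows arose in Lig4-/- cells or came from WT libraries was not tested. Over all 12 libraries 19 of 60 rows were in the opposite orientation and 6 carried an insertion, all 6 in B1.

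Across the 24 libraries with at least 1000 rows, the segments whose log2 usage was most like the summed usage of the members were Igkv6-14 (Pearson r = 0.63), Igkv2-112 (0.62) and Igkv14-111 (0.61) among 101 segments. Igkv2-112 and Igkv14-111 lie beside Igkv1-110, at 2502 and 2466 kb from Jκ1, and Igkv6-14 lies at 287 kb. The libraries share clones and lineages, so these values are a description.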

How the data were processed

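Junction lists were deposited by the authors, 1 row per read with its prey coordinates, its alignment positions and its sequence. The values are positions, not expression, and the unit is therefore other in every list. Per the submitters' processing notes, Bowtie2 and mm10 were used, and per the labels raw reads were set to a fixed number per lineage. Versions, deduplication and read filters are not given in the sources used here. Only the 42 RAG libraries were used here.

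From these lists, rows within 100 bp of an Igkv segment were counted and expressed as percent of library rows. The annotation used (RefSeq, GRCm38) gave no strand, so the usual orientation of a segment was the one of at least 90% of its WT rows (at least 5), in place of an annotated strand. Overlap and insertion were computed from the aligned positions of bait and prey on the read. V ends were counted from the heptamer where stated.

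Groups were compared by two-sided exact permutation of labels within lineage, with Benjamini-Hochberg adjustment over 22 tests. Structure values needed at least 10 member rows per library. The comparison by joining direction set no such minimum for each class of segments. Segment usage was tested with limma 3.58.1 (R 4.3.3) on log2 percent with a pseudocount of 0.5 rows, over segments with a mean of at least 10 rows, with adjusted p under 0.05 as the threshold. All 10 members are named, with the 3 segments most like them by Pearson correlation. In simulated tables the fit of Ku70-/- against WT (113 segments) recovered 15 of 15 segments changed 2-fold and 15 of 15 changed 4-fold, with 1 false call, and the other 2 designed comparisons recovered as many, with 1 and 2 false calls. The simulation gave every segment the same fixed spread between libraries. Some members spread more widely, such as Igkv1-122 in WT clone A (0.0594% to 0.232%), so this recovery does not give the power in the measured data. There, Igkv1-88 at -1.25 in the double null against Ku70-/- was not called (limma adjusted p = 0.0615).

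The rule for members used no measured value, but members, lists and tests were chosen with earlier results of these data known. The Jκ1 loss, the palindromes, the comparison of clones, the neighbouring segments, the joining direction and the comparison with other segments were added after the data were seen. Same-numbered libraries of Lig4-/- Ku70-/- A1_1 and Ku70-/- A1 deviated together (r = 0.32, 0.16 and 0.26 over 80 segments) and shared sequencing runs, as read from the read names, so the numbers were taken to pair them. In the other comparisons the 3 correlations did not all exceed 0.1. Scripts ran in Python 3.11.15 with pandas 2.3.3, numpy 2.4.6 and scipy 1.17.1.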

Additional observations from a re-analysis of the deposited data

Results flagged for a closer look

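The change of summed usage between Ku70-/- and WT, lineage A minus lineage B, was -5.16 percentage points (exact permutation p = 0.015, adjusted p = 0.105 over 7 measures). With each distinct joint counted once it was -3.82 (exact permutation p = 0.035). That permutation assumes no change in either lineage, so it does not test whether the 2 changes were equal. A test of the same difference for single segments flagged 2 members, where 18.6% of 113 segments passed. For Igkv1-133 the log2 change was 0.69 higher in lineage B than in lineage A (SE 0.21, limma adjusted p = 0.0461), from -0.85 in A and -0.16 in B. For Igkv1-110 it was 1.13 higher (SE 0.33, limma adjusted p = 0.0374), from -0.94 in A and 0.19 in B. Igkv1-135 gave 1.11 (limma adjusted p = 0.0502), just outside the threshold, and 0.43 with each distinct joint counted once (limma adjusted p = 0.203). By distinct joints Igkv1-133, Igkv1-132, Igkv1-122, Igkv1-110 and Igkv1-88 passed (limma adjusted p = 0.00831, 0.0210, 0.0460, 0.0220 and 0.0220). The share of all segments that passed by distinct joints is not given here.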

How the results depend on the processing

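Over 108 results and 943 alternatives, the 5 structure differences between Ku70-/- and WT (microhomology, insertions, orientation, V loss and bases past the coding end) kept their direction and their side of the threshold in all 82 of theirs. The differences in summed usage did not. With windows of 20 bp, Ku70-/- minus WT became -0.0576 and Lig4-/- minus WT -1.40 points. With the other A1 set, the double null minus Lig4-/- became 7.90, and with distinct joints the Ku70 add-back difference became 0.102. Leaving out 1 library gave -3.57 to -1.78 for that add-back, 3.53 to 8.22 for the Lig4 add-back against Lig4-/- (5.09 over all libraries, exact permutation p = 0.155, and p = 0.005 without Lig4-/- C library 1) and -0.276 to 1.41 for Lig4-/- against WT. For the double null against Ku70-/-, microhomology became 0.776 with distinct joints and 0.321 at 3 bp or more, and orientation became 1.28 with distinct joints, 1.82 with segments weighted equally and -4.59 to 3.28 leaving out 1 library. For V loss of the Lig4 add-back against WT, equal weights gave 0.0350 and the commonest WT end as reference gave 0.0803.

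Counts of members called moved with the setting, as did those over all segments. For Ku70-/- against WT (1), distinct joints gave 3 (64 of 111 segments; Igkv1-135, Igkv1-132 and Igkv1-122, not Igkv1-133), the replicate block 0 (21 of 113), a pseudocount of 5 rows 2 (45 of 113), and leaving out 1 library 0 to 2. For the double null against Ku70-/- (1), distinct joints gave 3 (16 of 60), no filter 0 (0 of 115), exact permutation 0 (0 of 80), and leaving out 1 library 0 to 1. For the Lig4 add-back against WT (1), the block (3 of 105), no filter (3 of 127) and exact permutation (0 of 105) each gave 0, distinct joints called Igkv1-88 in place of Igkv1-135, and leaving out 1 library 0 to 1. For WT clone B against A (8), distinct joints (58 of 113) and the block (52 of 117) gave 4, exact permutation 0, and leaving out 1 library 3 to 7. For double-null C1 against A1_1 (5), distinct joints (20 of 51, with Igkv1-133 and Igkv1-132 too rare to be tested) and no filter (6 of 116) gave 3, the block (3 of 75) and exact permutation 0, and leaving out 1 library 2 to 4. For the Lig4 add-back clones (6), exact permutation gave 0, and the call of Igkv1-132 was lost with distinct joints, with the block (limma adjusted p = 0.0775), with no filter (0.0854) and in 4 fits that left out 1 library (0.0652 to 0.136). With 3 libraries a group, exact permutation cannot pass after adjustment over so many segments. The replicate block ended no other call than these.

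Some single members turned sign. For Ku70-/- against WT, Igkv1-117 became 0.15 and Igkv1-88 0.0296 with distinct joints, Igkv1-99 became -0.32 with distinct joints, and a pseudocount of 5 rows gave 0.0051 for Igkv1-117 and 0.0282 for Igkv1-132. Leaving out 1 library gave -0.110 to 0.070 for Igkv1-117, above 0 without WT clone A library 2 or Ku70-/- A1 library 1 or 3. Igkv1-88 was -0.0740 in WT clone B against A with distinct joints. Leaving out 1 library gave -0.186 to 0.021 for Igkv1-135 between the Lig4 add-back clones (above 0 without C library 1) and -0.900 to 0.073 for Igkv1-122 in the Lig4 add-back against WT (above 0 without WT clone A library 2). Members minus other segments in microhomology became 0.294 with distinct joints in the Lig4 add-back. The rows of Lig4-/- and of the Ku70 add-back of A1_1 are too few for joint structure, and members with under 100 rows in a group have wide counting error. Causes were not tested.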
